A study of Mus musculus with 87 samples.

Results

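Transcript levels of 7 genes of cholesterol synthesis were followed in mouse liver after partial hepatectomy (PH), the surgical removal of a large part of the organ, and after sham surgery. The genes were Srebf2, Hmgcs1, Idi1, Fdps, Sqle, Lss and Cyp51, found by name among the 37991 genes of the table as protein-coding rows. None of the 7 codes for a receptor that takes up cholesterol, so the set is described here as synthesis genes with their transcription factor. Hmgcs1 is listed in 2 protein-coding rows, and both rows stand at the lowest value of the table in all 80 libraries. Whether the gene was silent or its reads were not assigned to these rows was not tested. The other 6 genes had a value above this floor in every library, and all 6 passed the filter on low values, a log2 RPKM above −1.5 in at least 1 library, which kept 15396 genes. RPKM is the number of reads scaled by transcript length and by the size of the library.

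The livers came from male C57BL/6 mice that were 12 to 14 weeks old at the time of surgery. Mice kept for 1 or 4 weeks after surgery were therefore older when their livers were taken. Food was given only between ZT12 and ZT24, the dark hours (ZT, zeitgeber time, counts hours from lights on). Surgery was at ZT2, each library was made from the poly(A) RNA of a single liver, and the labels name no genetic change or drug treatment. The unoperated groups were C0 (0 h, ZT2, 9 livers), C4 (ZT6, 3 livers) and C4W (matched to 4 weeks, 2 livers). The sham groups were S1 with 6 livers, S4 with 5, and S10, S20 and S48 with 3 each, named by the hours after surgery. The post-PH groups were X1, X10, X20 and X36 with 6 livers each, X48 with 5, X4, X28, X44 and X72 with 3 each, X1W (1 week) with 3 and X4W (4 weeks) with 2. The labels say that each library came from an individual liver and no more about the replicates, so p-values measure the spread between these livers. The study was run in 3 periods. S48, X28, X44, X48, X72 and X1W came from the first, S10, S20, C4W and X4W from the second and C4 from the third. C0 was spread over all 3, and S1, S4, X1, X10, X20 and X36 over the first and second, and the X4 livers came from the first or second. For the groups spread over periods, the sources used here do not tie a replicate number to a period, so no term for the period was fitted. In bulk tissue, fewer expressing cells and less RNA per cell cannot be told apart.

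Cholesterol is built from acetyl-CoA by a long chain of enzymes. Hmgcs1 makes HMG-CoA, Idi1 isomerises the isoprene unit, Fdps joins these units to farnesyl diphosphate, Sqle oxidises squalene, Lss closes it to lanosterol and Cyp51 removes a methyl group from lanosterol. Srebf2 codes for SREBP-2, a membrane-bound transcription factor that Scap escorts out of the endoplasmic reticulum when sterols are low and that Insig1 and Insig2 hold back when sterols are plentiful. The liver is the main organ of cholesterol synthesis and clearance, and it follows the daily cycle of feeding.

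Promoter windows of RefSeq (assembly GRCm38.p6, 250 bases before to 50 after the annotated start) were found for 5 of the 7 genes, Srebf2, Hmgcs1, Idi1, Lss and Cyp51. Those of 4 genes are shown because these genes code for the factor, for the member without a value and for the pair of enzymes whose levels followed each other most closely. Capitals mark CCAAT on either strand (ATTGG when read on the shown strand) and the run TCACCCCA, which was chosen after the sequences were seen.
Srebf2 (chr15:82147019-82147318, plus strand): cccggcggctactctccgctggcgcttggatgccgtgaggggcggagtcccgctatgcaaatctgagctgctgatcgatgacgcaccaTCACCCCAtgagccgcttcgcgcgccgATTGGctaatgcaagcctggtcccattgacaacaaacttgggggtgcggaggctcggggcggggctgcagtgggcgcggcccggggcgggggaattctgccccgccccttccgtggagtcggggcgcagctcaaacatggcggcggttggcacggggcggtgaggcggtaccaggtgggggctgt
Hmgcs1 (chr13:119690101-119690400, plus strand): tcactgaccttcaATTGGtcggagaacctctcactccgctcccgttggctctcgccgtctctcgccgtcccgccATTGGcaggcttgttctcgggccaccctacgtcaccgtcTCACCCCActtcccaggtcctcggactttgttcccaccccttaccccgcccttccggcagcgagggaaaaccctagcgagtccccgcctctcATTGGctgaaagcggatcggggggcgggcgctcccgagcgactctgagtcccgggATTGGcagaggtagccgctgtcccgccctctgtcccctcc
Idi1 (chr13:8885356-8885655, plus strand): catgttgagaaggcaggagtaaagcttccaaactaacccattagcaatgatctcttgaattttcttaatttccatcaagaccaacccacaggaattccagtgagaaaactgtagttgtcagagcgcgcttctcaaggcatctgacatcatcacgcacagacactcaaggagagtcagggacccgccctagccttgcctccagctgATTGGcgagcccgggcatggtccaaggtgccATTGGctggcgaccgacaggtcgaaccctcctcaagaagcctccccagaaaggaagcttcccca
Cyp51 (chr5:4104648-4104947, minus strand): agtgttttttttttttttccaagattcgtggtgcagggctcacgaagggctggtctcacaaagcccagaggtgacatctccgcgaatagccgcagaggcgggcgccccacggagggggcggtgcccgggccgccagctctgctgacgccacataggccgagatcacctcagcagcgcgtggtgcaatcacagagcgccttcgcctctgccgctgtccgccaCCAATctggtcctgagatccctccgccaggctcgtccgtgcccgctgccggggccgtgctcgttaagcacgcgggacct

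CCAAT, the core of the NF-Y site, was present in 5 of 5 member windows and in 11 of the 12 windows of the other synthesis genes, against 37.4% of 32851 windows of the same length. GGGCGG, the core of the Sp1 site, was in 5 of 5 member windows, in 10 of the 12 others and in 35.7% of all windows. The consensus of the sterol regulatory element, TCACNCCAC, was found in the Hmgcs1 window and in no other of the 5, in none of the 12 others and in 1.24% of all windows. The shorter TCACCCCA, which overlaps it, was in the windows of Srebf2 and Hmgcs1, in none of the 12 others and in 1.56% of all windows. The E-box CACGTG was in none of the 5, in 3 of the 12 others and in 7.15% of all windows. Both strands were searched, and a match describes these letters only.

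In mm9, Srebf2 lies at chr15:81977696-82035806 (plus strand), Idi1 at chr13:8884852-8891641 (plus), Fdps at chr3:88897514-88905881 (minus), Sqle at chr15:59146632-59162747 (plus), Lss at chr10:75994333-76019883 (plus) and Cyp51 at chr5:4081145-4104746 (minus). The Hmgcs1 window matched 2 unplaced contigs of mm9 over all 300 bases. Neither of the 2 Hmgcs1 rows had its gene in the annotation used here for these positions. The values count reads over the exons of each gene. Of the measured genes, Idi1 and Fdps have copies in the genome that bear on their values, because the authors counted a read with several positions at each of them as a fraction. The Idi1 transcript matched the pseudogene Gm13502 (mm9 chr2:53553399-53555892) with 99.3% identity over 2494 bases. The row of Gm13502 had a median of 38.3 RPKM and a highest value of 126, beside 34.8 and 117 for Idi1 itself. The Fdps transcript matched the pseudogene Gm3571 with 98.8% identity over 1160 bases, and this row had a median of 9.21 RPKM. The other 6 matches of Fdps of at least 300 bases, the longest with 1188 bases, lay outside annotated genes or in genes at 0.103 RPKM or less. The levels of Idi1 and Fdps are therefore uncertain. In a further fit the RPKM of Gm13502 or Gm3571 was added to that of the gene. Every called value and every post-PH against sham value of either gene then kept its direction and its call. The direction of the other values was not checked in this way. Further matches were not added. Srebf2, Sqle, Lss and Cyp51 had no copy of at least 300 bases at 90% identity or more.

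Estimated depth was 12.2 to 48.9 M reads (M, megareads) per library, with a median of 26.7 M, and the fewest reads estimated behind a member value were 366, for Lss. Liver markers were high throughout (the 6 hepatocyte markers summed to 24600 to 58100 RPKM). The 5 Kupffer cell markers ranged from 4.06 to 129 RPKM, the 4 neutrophil markers from 0.356 to 45.6, the 5 endothelial markers from 4.73 to 33.4, the 5 stellate markers from 28.1 to 87.7, the 4 cholangiocyte markers from 1.44 to 6.20, the 3 B cell markers from 0.0408 to 4.04, the 3 erythroid markers from 14.5 to 98.5 and the 4 markers of proliferating cells from 0.103 to 121. Of the 5 pancreas acinar markers, which summed to 2.77 to 29.2 RPKM, 1 passed the filter. C0 replicate 8 had the highest sums of Kupffer cell, neutrophil and endothelial markers, and the part of other cell types in the results below was not tested. Several livers stood apart from their groups in the members themselves, above all S1 replicate 3 and X36 replicate 2, which were low, and the counts below are also given without them where they change.

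Fdps had the highest level of the 6 genes in 80 of 80 libraries and Lss the lowest in 79 of 80 (RPKM, per length of transcript). The group mean of log2 RPKM was highest in S20 for Srebf2 (4.00), Idi1 (6.42), Fdps (8.75) and Cyp51 (6.59), and highest in X72 for Sqle (5.19) and Lss (4.06). It was lowest in X4 for Sqle (2.52), Lss (0.50) and Cyp51 (4.11), lowest in X10 for Idi1 (4.06) and Fdps (5.79), and lowest in C4 for Srebf2 (2.81). From the lowest to the highest group mean, Lss spanned 3.56 on the log2 scale, Fdps 2.96, Sqle 2.67, Cyp51 2.48, Idi1 2.36 and Srebf2 1.19. When the 19 groups were put in order of their means, the livers of neighbouring groups overlapped in 17 of 18 neighbouring pairs for Srebf2 and Idi1 and in 18 of 18 for the other genes.

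**Figure D1:**
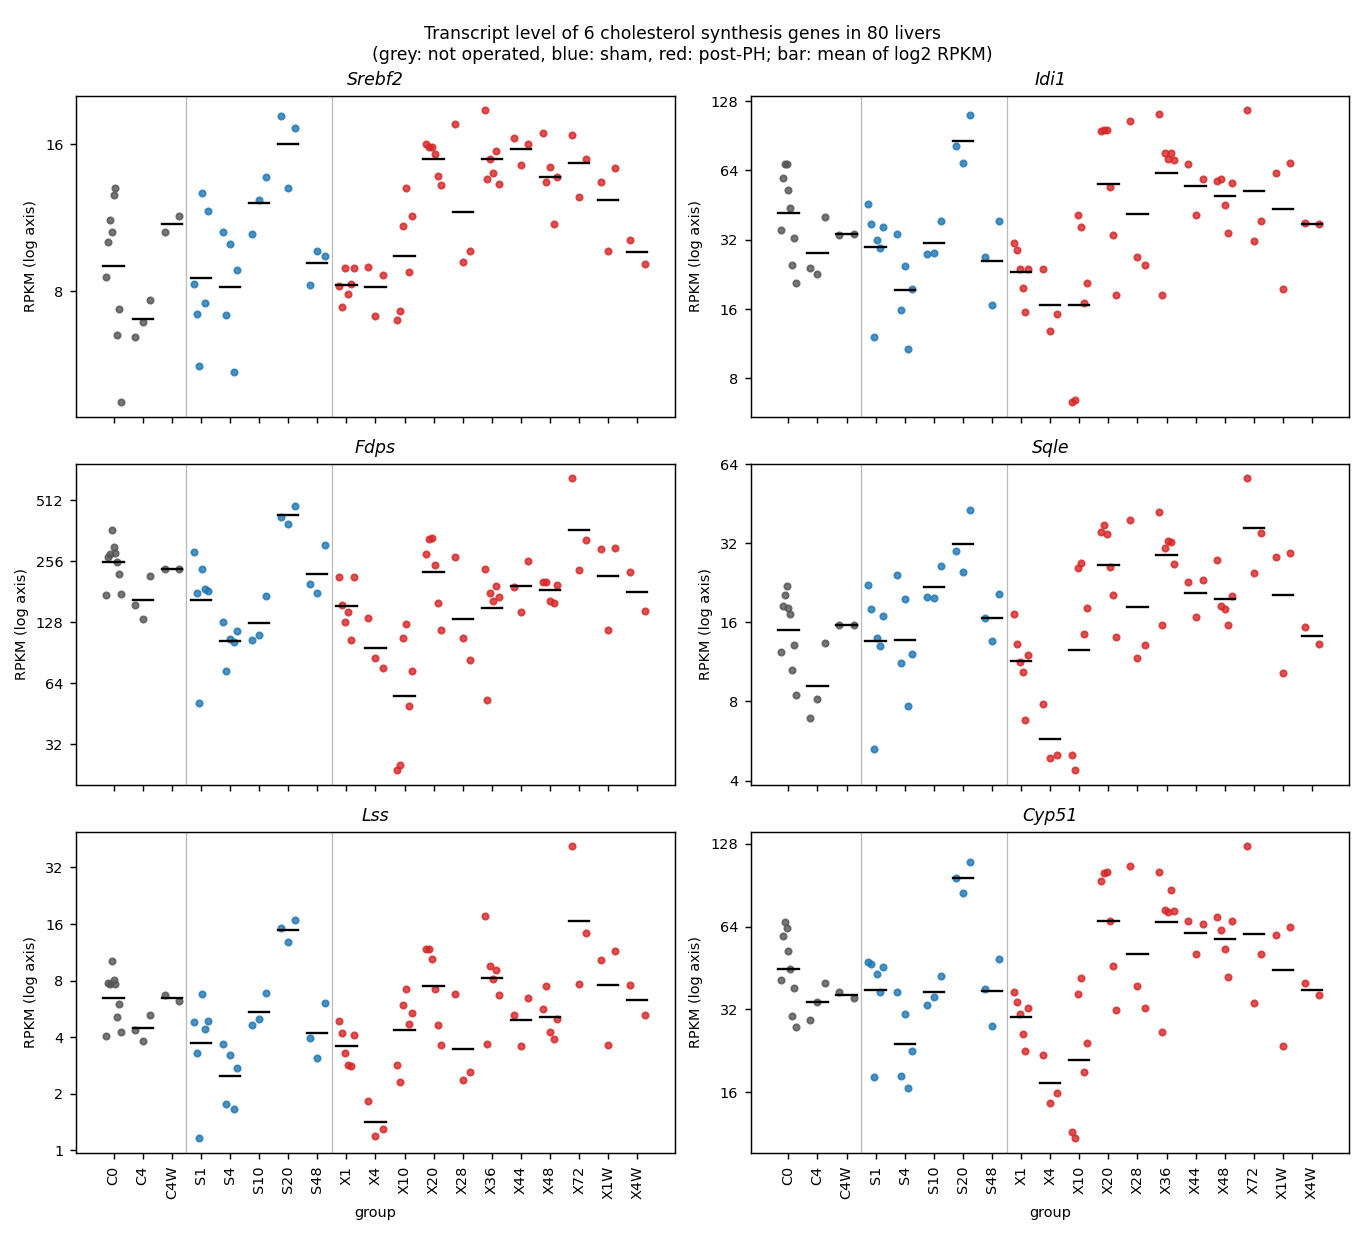
RPKM of 6 cholesterol synthesis genes in each of 80 livers (points, log axis) by group, with the mean of log2 RPKM of each group as a bar. The 3 S20 livers lie high in every panel (84.5 to 110 RPKM for Cyp51), the 3 X4 livers lie low for the enzymes (14.7 to 21.8 RPKM for Cyp51), and livers of a single group differ widely, as in X72 for Lss (7.72 to 41.4 RPKM).

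The comparison of post-PH with sham livers of the same hour asks what the removal of liver tissue adds to surgery. Sqle was lower at 4 h, Fdps was lower at 10 h and Srebf2 was higher at 48 h after PH than after sham surgery. These were 3 of 30 values (6 genes at 5 times), called at a Benjamini-Hochberg adjusted p below 0.05 in limma and a log2 fold change beyond 0.5. At 1 h no member was called, and none had an unadjusted p below 0.05, with 0.65% of all genes called. The 1 member lower at 4 h stands beside 5.48% of all genes called lower, the 1 lower at 10 h beside 3.62%, and the 1 higher at 48 h beside 24.5% called higher. At 20 h no member was called and 2 had an unadjusted p below 0.05, with 7.11% of all genes called. The median log2 fold change of the members was −0.18 at 1 h, −0.34 at 4 h, −0.79 at 10 h, −0.57 at 20 h and 0.42 at 48 h, beside 0.01, −0.04, 0.00, 0.07 and 0.27 over all genes tested. With all libraries scaled to the same median, the share of called genes that were higher moved from 36.5% to 48.2% at 4 h and from 63.3% to 43.3% at 20 h.

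Sqle, squalene epoxidase, was at 7.82, 4.87 and 5.01 RPKM in the 3 X4 livers. In the 5 S4 livers it was at 24.3, 11.2, 19.6, 7.70 and 12.1 RPKM. X4 replicates 5 and 6 lay below all sham livers, and replicate 4 lay just above the lowest of them. The mean was 2.34-fold lower after PH (log2 fold change −1.22, SE 0.42, limma adjusted p = 0.039). The call was lost when S4 replicate 1 or 3 or X4 replicate 5 or 6 was left out, with log2 fold changes between −1.44 and −1.02 over the 8 livers left out in turn, and in the fits without a filter, of these 2 groups alone, or of replicates 4 to 6. Of the other members at 4 h, Lss had a log2 fold change of −0.72 (95% interval −1.54 to 0.10, adjusted p = 0.272), and the interval of Srebf2 ran from −0.43 to 0.43. The S4 livers belong to the first and second periods and the X4 livers to the first or second. For any gene at 4 h, a difference between periods cannot be told apart from that between PH and sham surgery.

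Fdps, farnesyl diphosphate synthase, ranged in the 6 X10 livers from 23.8 RPKM over a median of 61.5 to 125. It was at 104, 111 and 172 RPKM in the 3 S10 livers. The lowest pair of X10 livers, replicates 1 and 2, lay far below every sham liver, and the 2 highest lay within the sham range. The mean was 2.26-fold lower after PH (log2 fold change −1.18, SE 0.41, limma adjusted p = 0.0487). The call was lost without S10 replicate 1, 2 or 3 or X10 replicate 1, 2 or 5 (log2 fold changes of −1.41 to −0.93 over the livers left out), and in the fits without a filter, of these groups alone, or with a prior variance without a trend. Idi1 ranged from 6.31 to 41.2 RPKM in X10, with a median of 18.8, and was at 27.8, 28.0 and 38.6 RPKM in S10. Its log2 fold change was −0.89 (SE 0.50, limma adjusted p = 0.27). Cyp51 ranged from 10.9 to 41.5 RPKM in X10, with a median of 21.5, and was at 33.2, 35.6 and 42.5 RPKM in S10. Its log2 fold change was −0.80 (SE 0.37, limma adjusted p = 0.163). All S10 livers belong to the second period and the X10 livers to the first and second. A difference between periods cannot be told apart from that between PH and sham surgery at 10 h.

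At 20 h no member was called, and Lss and Fdps were the 2 members with an unadjusted p below 0.05 in limma. Lss, lanosterol synthase, ranged from 3.63 to 11.8 RPKM in the 6 X20 livers, with a median of 8.83, and was at 15.2, 12.8 and 16.9 RPKM in the 3 S20 livers. The groups did not overlap (log2 fold change −0.96, SE 0.40, limma adjusted p = 0.0999). Fdps ranged from 117 to 332 RPKM in X20, with a median of 261, and was at 425, 392 and 481 RPKM in S20, again without overlap (log2 fold change −0.92, SE 0.41, limma adjusted p = 0.13). How many of all genes lay apart in this way was not counted, in this comparison or in any other of this text. No result is drawn from such separation. The X20 livers were themselves divided. Cyp51 was at 93.4, 100 and 101 RPKM in replicates 1 to 3, beside 96.0, 84.5 and 110 RPKM in S20, and at 67, 46.2 and 31.8 RPKM in replicates 4 to 6. With replicates 1 to 3 of both groups alone, the log2 fold change turned from −0.51 to 0.03 for Cyp51, from −0.62 to 0.16 for Idi1 and from −0.26 to 0.18 for Sqle. All S20 livers belong to the second period and the X20 livers to the first and second, 3 in each, so equal numbers need not mean a shared period, and a difference between periods cannot be told apart from that between PH and sham surgery here.

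Srebf2, the gene of the transcription factor, was at 16.9, 13.4, 14.4, 11 and 13.7 RPKM in the 5 X48 livers. It was at 8.24, 9.67 and 9.45 RPKM in the 3 S48 livers. All X48 livers lay above all sham livers, and the share of all genes separated in this way was not counted. The mean was 1.5-fold higher after PH (log2 fold change 0.58, SE 0.21, limma adjusted p = 0.0221). The median gene was also higher at 48 h (log2 fold change 0.27), and when all libraries were scaled to the same median, Srebf2 differed by 0.10 (adjusted p = 0.758). This scaling moved the median difference of single genes at 48 h by −0.44 and the share of called genes that were higher from 90.1% to 38.8%, and it turned Sqle from 0.23 to −0.26 and Lss from 0.26 to −0.20, neither of them called. The call of Srebf2 was also lost without S48 replicate 1 or X48 replicate 1 (log2 fold changes of 0.51 to 0.66 over the livers left out) and without the filter.

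**Figure D2:**
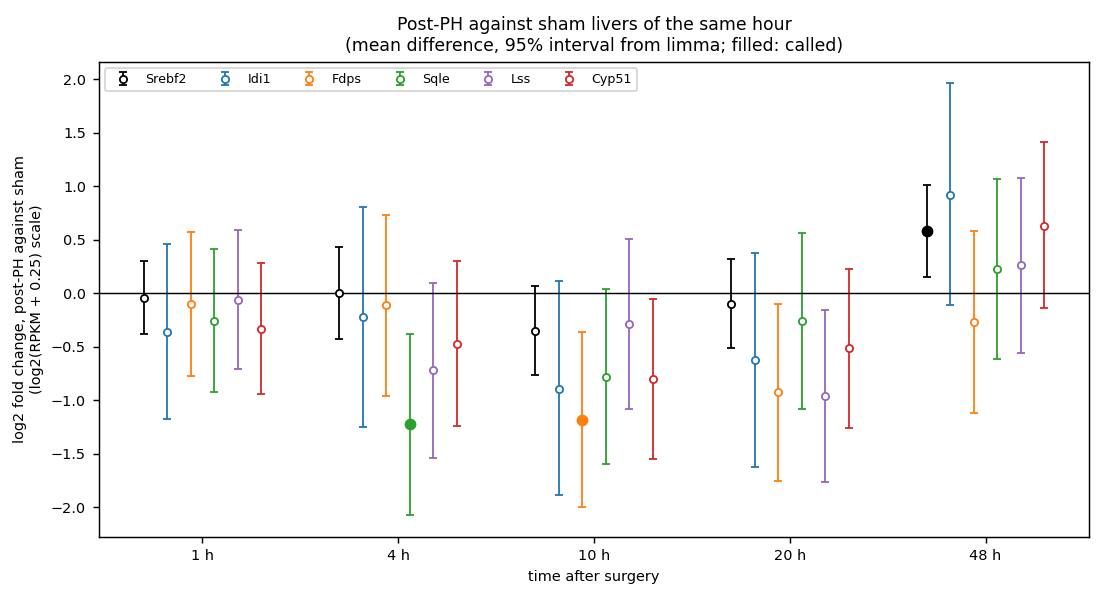
Log2 fold change of post-PH against sham livers of the same hour (x axis, 1 h to 48 h after surgery) for 6 genes, with 95% intervals from limma, filled where called. All 6 values lie below 0 at 1 h, 10 h (−1.18 to −0.29) and 20 h, and 5 of 6 do at 4 h. At 48 h 5 of 6 lie above 0, where the median over all genes was 0.27. Of the 30 points, 3 are filled.

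Whether the difference between PH and sham surgery changed from 1 time to the next was tested as an interaction in the same model. None of 24 values (6 members in 4 contrasts of neighbouring times) was called by limma, and the smallest adjusted p was 0.115. The 4 values with an unadjusted p below 0.05 were all in the contrast of 48 h with 20 h, namely Idi1 (1.54, SE 0.72), Lss (1.22, SE 0.57), Cyp51 (1.15, SE 0.54) and Srebf2 (0.68, SE 0.30), in a contrast where 13.2% of all genes were called. Scaling to the same median moved the share of higher calls in this contrast from 95.1% to 48.0%. In the contrasts of 4 h with 1 h, 10 h with 4 h and 20 h with 10 h, 4.68%, 3.73% and 0.104% of all genes were called, and scaling moved the share of higher calls from 22.6% to 42.2%, from 68.5% to 53.5% and from 81.2% to 45.5%.

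Sham livers were compared with the resting C0 livers, from which they differ in surgery and, except at 48 h, in the hour of day. The sham groups come from the first and second periods and C0 from all 3, so period is not separated either. Part of the enzymes were lower at 4 h and part were higher at 20 h. At 4 h Idi1, Fdps, Lss and Cyp51 were called lower, 4 of 6 members beside 22.7% of all genes called lower. At 10 h Fdps was called lower, beside 11.2% of all genes. At 20 h Srebf2, Sqle, Lss and Cyp51 were called higher, 4 of 6 members beside 7.85% of all genes called higher. At 1 h no member was called in limma and 1 had an unadjusted p below 0.05, with 7.77% of all genes called, and at 48 h none was called and none had an unadjusted p below 0.05, with 8.88% of all genes called. The median of the members was −0.37, −1.0, −0.27, 1.05 and −0.23 in S1, S4, S10, S20 and S48, beside −0.12, −0.14, 0.07, 0.04 and −0.03 over all genes. Scaling all libraries to the same median moved the share of called genes that were higher from 31.3% to 56.3% at 1 h, from 34.1% to 45.9% at 4 h, from 61.3% to 36.9% at 10 h and from 64.6% to 36.1% at 20 h. The call of Fdps at 10 h, at 104, 111 and 172 RPKM against 175 to 367 in C0 (log2 fold change −1.0, SE 0.39, limma adjusted p = 0.0287), was lost without S10 replicate 1 or 2.

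Lss was at 3.66, 1.77, 3.20, 1.66 and 2.75 RPKM in the 5 S4 livers and at 4.07 to 10.2 RPKM, with a median of 7.67, in the 9 C0 livers. The groups did not overlap, and the share of all genes separated in this way was not counted. The S4 mean was 2.45-fold lower (log2 fold change −1.30, SE 0.31, limma adjusted p = 0.000311). Fdps was at 129, 73.3, 106, 102 and 116 RPKM in S4, below all C0 livers (175 to 367 RPKM, median 268), and was 2.43-fold lower (log2 fold change −1.28, SE 0.32, limma adjusted p = 0.00053). Cyp51 and Idi1 were 1.87-fold and 2.13-fold lower, and their S4 livers overlapped those of C0. Sqle, at 7.70 to 24.3 RPKM in S4, had a log2 fold change of −0.11, and Srebf2 of −0.13. Against the unoperated C4 livers of the same hour no member of S4 was called, with values from −0.78 for Lss (95% interval −1.60 to 0.04) to 0.59 for Sqle (−0.26 to 1.43). The call of Idi1 was lost without S4 replicate 4, the lowest of its group.

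At 20 h the 3 S20 livers lay above all 9 C0 livers for each of the 6 genes. The share of all genes separated in this way was not counted, so no result is drawn from this separation. Srebf2 was at 18.3, 13 and 17.3 RPKM in S20, beside 4.74 to 13 RPKM with a median of 10.1 in C0, and 1.76-fold higher (log2 fold change 0.82, SE 0.20, limma adjusted p = 0.00136). Lss, at 15.2, 12.8 and 16.9 RPKM, was 2.24-fold higher (log2 fold change 1.16, SE 0.38, limma adjusted p = 0.0168). Cyp51, at 96.0, 84.5 and 110 RPKM beside 27.7 to 66.4 in C0, was 2.13-fold higher (adjusted p = 0.017), and Sqle, at 29.8, 24.9 and 42.9 RPKM, was 2.10-fold higher (adjusted p = 0.0324). Idi1 (log2 fold change 1.03, adjusted p = 0.10) and Fdps (0.77, adjusted p = 0.138) were not called. Without S20 replicate 1 or 3 the number called fell from 4 to 1, and the call of Sqle was also lost without C0 replicate 7 or 9. With all libraries scaled to the same median, Sqle differed by 0.93 (limma adjusted p = 0.0597) and was not called. The calls of Srebf2, Lss and Cyp51 were kept. S20 livers were taken at ZT22 and C0 livers at ZT2, and no unoperated liver of ZT22 was analysed here. All S20 livers belong to the second period, while C0 spans all 3. Surgery, hour of day and period therefore cannot be told apart in this difference.

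The C0 livers were not uniform. Replicates 7 to 9 lay below all of replicates 1 to 6 for Srebf2 (at most 7.37 against at least 8.54 RPKM), Idi1 (32.6 against 35.3) and Cyp51 (38.4 against 40.8), and not for Fdps, Sqle and Lss. C0 holds 3 livers of each period, and whether these replicate numbers follow the periods is not given in the sources used here. With C0 replicates 7 to 9 as the only controls, the members called lower fell from 4 to 2 in S4 and from 5 to 2 in X4, and with replicates 4 to 6 alone those called higher fell from 4 to 0 in S20 and from 3 to 0 in X72.

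Post-PH livers against C0 follow the pathway through regeneration, with the hour of day changing along it. Of 66 values (6 genes at 11 times), 10 were called lower, 9 of these within the first 10 h, and 9 were called higher, all from 20 h to 72 h. This split depended on the scaling. With all libraries scaled to the same median, Fdps was also called lower at 28 h (−0.97, limma adjusted p = 0.0354), 44 h (−0.91, 0.0411) and 48 h (−0.95, 0.00927), Lss at 10 h (−0.74, 0.0228), 28 h (−0.90, 0.0402), 44 h (−0.87, 0.0417) and 48 h (−0.80, 0.0222), and of the higher calls only those of Sqle and Lss at 72 h remained. At 1 h Lss was called lower, 1 of 6 members beside 8.65% of all genes. At 4 h Idi1, Fdps, Sqle, Lss and Cyp51 were lower, 5 of 6 beside 26.9%, and at 10 h Idi1, Fdps and Cyp51 were lower, 3 of 6 beside 15.2%. At 20 h Srebf2 and Sqle were higher, 2 of 6 beside 16.5%. At 28 h none was called in limma, 2 had an unadjusted p below 0.05, and 24.9% of all genes were called. At 36 h Srebf2 and Sqle were higher, 2 of 6 beside 25.7%, and Fdps was lower, 1 of 6 beside 9.29%. At 44 h and 48 h only Srebf2 of the 6 was called higher, beside 30.8% and 30.4% of all genes. At 72 h Srebf2, Sqle and Lss were higher, 3 of 6 beside 26.6%. At 1 week none was called in limma, with 1 unadjusted p below 0.05 and 16.9% of all genes called, and at 4 weeks none, with no unadjusted p below 0.05 and 5.62% of all genes called. Scaling to the same median moved the share of called genes that were higher from 35.9% to 51.0% at 1 h, from 29.5% to 44.3% at 4 h, from 58.3% to 38.3% at 10 h, from 73.5% to 35.9% at 1 week and from 62.8% to 28.0% at 4 weeks. All these comparisons share the C0 livers with each other and with those of the sham groups. C0 spans all 3 periods and the post-PH groups only the first, the second or both, so period and surgery are not separated here. The call of Lss at 1 h (log2 fold change −0.80, SE 0.30, limma adjusted p = 0.0273) was lost without C0 replicate 4 or X1 replicate 4 or 5, and that of Sqle at 20 h (0.81, SE 0.30, adjusted p = 0.0218) without C0 replicate 9 or X20 replicate 1, 2 or 3.

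The fall at 4 h was deepest in Lss. Its 3 X4 livers were at 1.83, 1.20 and 1.3 RPKM, below all C0 livers, and 4.04-fold lower (log2 fold change −2.01, SE 0.38, limma adjusted p = 5.94e-06). Fdps, at 135, 84.8 and 75.8 RPKM, was 2.63-fold lower (−1.40, SE 0.39, adjusted p = 0.00164). Cyp51, at 21.8, 14.7 and 15.9 RPKM, was 2.59-fold lower (−1.37, SE 0.35, adjusted p = 0.000697). Sqle was 2.53-fold lower (−1.34, SE 0.39, adjusted p = 0.00235), and none of these 4 genes had an X4 liver within the range of C0. How many of all genes lay apart in this way was not counted. Idi1, at 23.8, 12.9 and 15.2 RPKM, was 2.47-fold lower with overlap (−1.31, SE 0.47, adjusted p = 0.0151), and this call was lost without X4 replicate 5 or 6. Srebf2, at 8.95, 7.11 and 8.62 RPKM, stood within the range of C0 (log2 fold change −0.13).

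At 10 h Fdps had fallen furthest, with all 6 X10 livers (23.8 to 125 RPKM) below all C0 livers and a mean 4.52-fold lower (log2 fold change −2.18, SE 0.31, limma adjusted p = 6.96e-09). Idi1 was 2.47-fold lower (−1.31, SE 0.37, adjusted p = 0.00184) and Cyp51 2.13-fold lower (−1.09, SE 0.28, adjusted p = 0.000569), both with overlap. Sqle, at 4.38 to 26.9 RPKM with a median of 16.3, had a log2 fold change of −0.24 and was not called. X10 replicates 1 and 2 were the 2 lowest livers of the study for Idi1, Fdps and Cyp51, and replicate 2 was the lowest for Sqle, but for Lss no X10 liver lay below 2.32 RPKM. In X10 replicate 1 the neutrophil markers summed to 11.8 RPKM (3.27 to 5.01 in the others), and in replicate 2 the Kupffer cell markers to 27.3 RPKM (4.06 to 24.5 in the others), and their part in the result was not tested. The 3 calls at 10 h were kept when any single liver was left out.

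Srebf2 was higher in each of 5 post-PH groups from 20 h to 72 h, X20, X36, X44, X48 and X72. It ranged from 13.2 to 16.0 RPKM in X20 (1.64-fold above C0, log2 fold change 0.72, SE 0.15, limma adjusted p = 8.57e-05) and from 13.3 to 18.8 in X36 (1.64-fold, 0.71, SE 0.15, adjusted p = 5.86e-05). It was at 16.5, 14.5 and 16.0 RPKM in X44 (1.72-fold, 0.78, SE 0.20, adjusted p = 0.000493). These 3 groups did not overlap C0, and the share of all genes separated in this way was not counted. The median difference over all genes was 0.11 to 0.24 on the log2 scale in these 5 comparisons, and the call at 48 h was lost without C0 replicate 9. With all libraries scaled to the same median, the differences of Srebf2 were 0.49 at 20 h (adjusted p = 0.0029), 0.34 at 36 h (adjusted p = 0.0302), 0.27 at 44 h, 0.11 at 48 h and 0.30 at 72 h, and none reached the minimum of 0.50. Under this scaling the share of called genes that were higher at 36 to 72 h was 33.8% to 40.9% in place of 73.5% to 80.1%, and it was 37.5% in place of 68.4% at 20 h.

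Sqle and Lss were high at 72 h. Lss was at 41.4, 7.72 and 14.4 RPKM in the 3 X72 livers and 2.51-fold above C0 (log2 fold change 1.33, SE 0.38, limma adjusted p = 0.00221), and Sqle, at 56.6, 24.6 and 35.1 RPKM, was 2.42-fold above it (1.28, SE 0.39, adjusted p = 0.00414). X72 replicate 1 was the highest liver of the study for Idi1 (117 RPKM), Fdps (657), Sqle, Lss and Cyp51 (125), and without it the calls of both genes were lost, with log2 fold changes of 0.68 for Lss and 0.96 for Sqle. This liver also had the highest sum of the 4 neutrophil markers of its group (30.3 RPKM, beside 3.16 and 6.47) and of the 5 Kupffer cell markers (64.6, beside 29.7 and 37.1), while its hepatocyte sum was 47900 beside 48900 and 58100, and their part in the result was not tested. Fdps, called lower at 36 h (1.67-fold, log2 fold change −0.74, adjusted p = 0.0338), lost that call without X36 replicate 2 (52.9 RPKM, beside 163 to 235 in the others), where it was −0.43, and without C0 replicate 4.

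**Figure D3:**
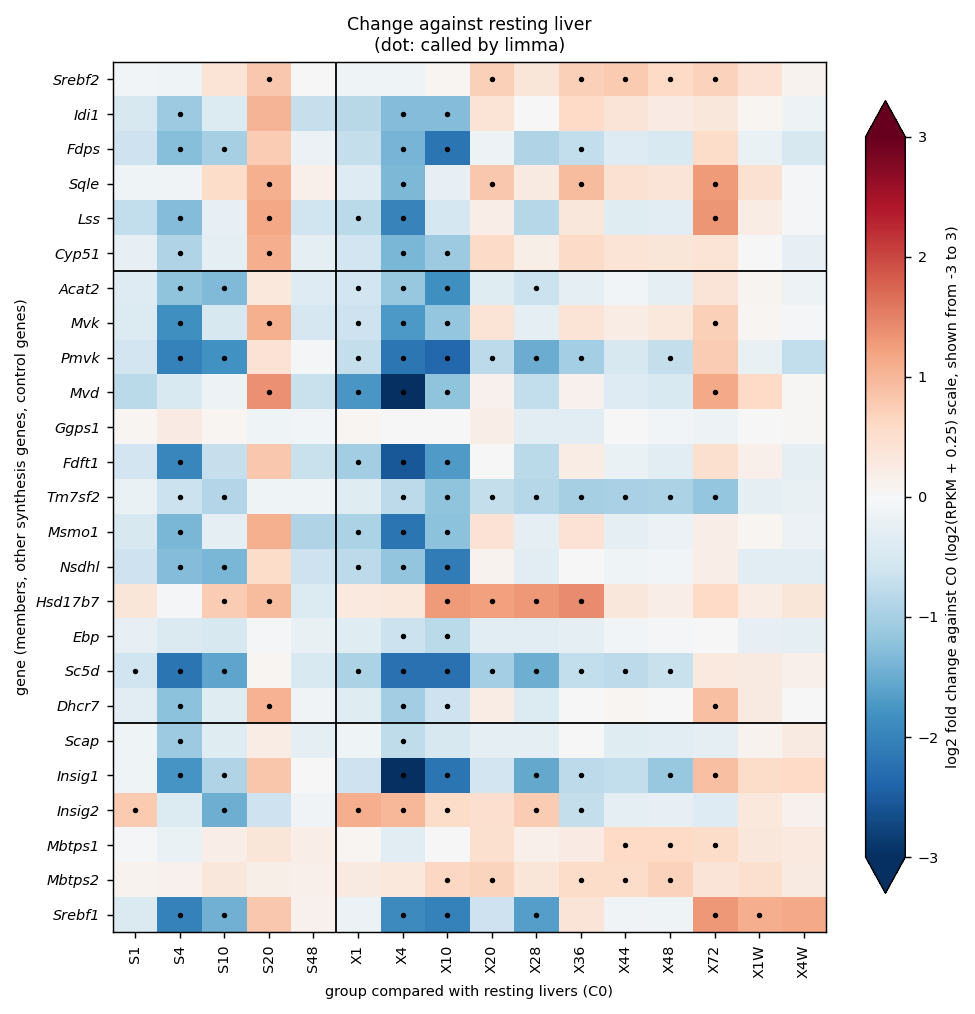
Log2 fold change against resting C0 livers (colour, from −3 to 3) of the 6 measured members, 13 other synthesis genes and 6 control genes in 5 sham and 11 post-PH groups, with a dot where limma called the difference. Most synthesis genes are blue at 4 h and 10 h after PH (11 of the 13 others called lower at each), and the members Srebf2 and Sqle are red at 20 h, 36 h and 72 h.

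Without surgery, ZT6 livers (C4) did not differ from ZT2 livers (C0) by the test in any of the 6 genes, with no unadjusted p below 0.05 in limma and 7.89% of all genes called. All 6 log2 fold changes were negative, with a median of −0.54 beside 0.07 over all genes, and they ran from −0.70 for Sqle (95% interval −1.47 to 0.07) to −0.35 for Srebf2. Against these livers of the same hour, X4 livers were called lower in Lss (2.82-fold, log2 fold change −1.5, SE 0.46, limma adjusted p = 0.00436) and Cyp51 (1.97-fold, −0.97, SE 0.43, adjusted p = 0.049), 2 of 6 beside 33.9% of all genes called lower. C4 was at 4.36, 3.84 and 5.28 RPKM for Lss and at 29.2, 34.0 and 39.8 for Cyp51, and the X4 livers lay below all of them. The call of Cyp51 was lost without any 1 of the C4 livers and without X4 replicate 5 or 6. It was also lost with all libraries scaled to the same median (−0.69, limma adjusted p = 0.165), while that of Lss was kept. S4 livers differed from C4 by no call and no unadjusted p below 0.05 in limma, with 43.3% of all genes called. Under scaling to the same median the share of called genes that were higher was 51.5% in place of 73.6% for C4 against C0, 44.4% in place of 25.6% for X4 against C4 and 45.9% in place of 28.3% for S4 against C4. All C4 livers belong to a period that holds no S4 or X4 liver, so period and surgery cannot be told apart in the last 2 comparisons. C0 spans all 3 periods and C4 only the third, so period and hour of day are not separated in C4 against C0. In C0 replicates 7 to 9 the mean log2 RPKM was 2.61 for Srebf2, 4.68 for Idi1 and 4.99 for Cyp51, below C4 (2.81, 4.81 and 5.09). For Fdps, Sqle and Lss it lay above C4.

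Post-PH groups a full day apart share the hour of day. At ZT6, Sqle, Lss and Cyp51 were higher at 28 h than at 4 h, 3 of 6 members beside 22.6% of all genes called higher. Cyp51 was at 106, 38.9 and 32.4 RPKM in the X28 livers, all above the X4 livers, and 2.94-fold higher (log2 fold change 1.56, SE 0.43, limma adjusted p = 0.00291), and Sqle, at 39.3, 11.7 and 13.1 RPKM, was 3.08-fold higher (1.62, SE 0.47, adjusted p = 0.00439). X28 replicate 1 lay far above the other 2 livers of its group, and without it none of the 3 calls remained, with log2 fold changes of 1.03 for Cyp51, 1.08 for Sqle and 0.71 for Lss, and that of Lss was also lost without X4 replicate 5 or 6. In X28 replicate 1 the Kupffer cell markers summed to 21.9 RPKM (31.9 and 58.2 in the others) and the neutrophil markers to 2.41 RPKM (3.63 and 3.99), and their part in the result was not tested. X28 replicate 2 is the library whose low values came least often near whole reads (37.0%, beside 72.6% in the next lowest), so its depth is uncertain here and in the comparison of 28 h with C0. At ZT2, Lss was 3.15-fold higher at 72 h than at 48 h (1.66, SE 0.41, limma adjusted p = 0.00434), the 1 member called beside 2.23% of all genes called higher, and this call was lost without X72 replicate 1 (1.01). At ZT22, 44 h against 20 h, no member was called in limma and no unadjusted p was below 0.05, with 16.1% of all genes called. Under scaling the share of called genes that were higher was 56.6% in place of 79.8% for 28 h against 4 h, 58.7% in place of 37.4% for 72 h against 48 h and 44.0% in place of 80.6% for 44 h against 20 h. For 28 h against 4 h, Lss then differed by 0.97 (limma adjusted p = 0.0868) and was not called, while Sqle and Cyp51 were. At 4 weeks, X4W against C4W gave no call and no unadjusted p below 0.05 in limma, with 0.065% of all genes called, in groups of 2 livers each.

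The other genes of the pathway were counted from lists that are not independent of earlier results on these livers. Of 13 further synthesis genes, 1 was called lower after PH than after sham surgery at 4 h, beside 5.48% of all genes, 3 at 20 h, beside 2.61%, and 1 at 48 h, beside 2.69%. At 48 h 1 was called higher, a smaller share than the 24.5% of all genes. None was called in either direction at 1 h or 10 h, with 1 and 7 unadjusted p below 0.05 in limma, beside 0.65% and 7.02% of all genes called. The 1 at 4 h was Mvd, mevalonate diphosphate decarboxylase, which was at 0.54 to 1.12 RPKM in X4 with a median of 0.658 and at 3.81 to 16.7 RPKM in S4 with a median of 8.07 (log2 fold change −3.19, SE 0.52, limma adjusted p = 8.55e-06). At 20 h they were Pmvk (phosphomevalonate kinase, −1.21, SE 0.35), Sc5d (sterol C5 desaturase, −1.10, SE 0.28) and Acat2 (acetoacetyl-CoA thiolase, −0.68, SE 0.21). At 48 h Tm7sf2, a sterol C14 reductase, was lower (−0.83, SE 0.22), and Mvk, mevalonate kinase, was higher (0.82, SE 0.34). With all libraries scaled to the same median, Mvk differed by 0.34 (limma adjusted p = 0.486), and the other 5 calls were kept.

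Against C0, 9 of the 13 were called lower in S4, beside 22.7% of all genes, 11 in X4, beside 26.9%, and 11 in X10, beside 15.2%. The largest of these falls was that of Mvd in X4 (log2 fold change −3.64, SE 0.48, limma adjusted p = 1.78e-09). In S20, 4 of the 13 were called higher, beside 7.85% of all genes, and none lower.

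Insig1, whose product holds SREBP precursors in the endoplasmic reticulum, was lower after PH than after sham surgery at 4 times, and its relative Insig2 was higher at 3. Of the 6 control genes, 1 was called lower at 4, 10 and 48 h and 3 at 20 h, beside 5.48%, 3.62%, 2.69% and 2.61% of all genes in that order. Called higher were 1 at 4 h, beside 3.16%, 1 at 10 h, beside 3.4%, 2 at 20 h, beside 4.49%, and 1 at 48 h, beside 24.5%. Insig1 was at 6.52 to 13.1 RPKM in X4, with a median of 7.45, and at 17.5 to 62.4 RPKM in S4, with a median of 35.1. The groups did not overlap (log2 fold change −1.95, SE 0.42, limma adjusted p = 0.000551), and the differences at 10, 20 and 48 h were −1.29, −1.40 and −1.16. Insig2 was at 58.2 to 180 RPKM in X10, with a median of 121, and at 26.9 to 30.4 RPKM in S10, with a median of 29.8 (log2 fold change 2.01, SE 0.27, limma adjusted p = 2.96e-07). The differences of Insig2 at 4 and 20 h were 1.41 and 1.11. Of the other 4 control genes, Srebf1, the factor of fatty acid synthesis (−1.45, SE 0.38), and Scap (−0.50, SE 0.15) were lower and Mbtps2, a protease that frees SREBPs (0.50, SE 0.092), was higher at 20 h, and Mbtps2 was higher again at 48 h (0.52). With all libraries scaled to the same median, Mbtps2 differed by 0.43 at 20 h and by 0.13 at 48 h (limma adjusted p = 0.25) and was not called, while the calls of the other control genes were kept.

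Among 12 genes of cholesterol handling, none was called at 1, 10 or 20 h, with 1, 3 and 1 unadjusted p below 0.05 in limma. Called lower were 1 at 4 h, beside 5.48% of all genes, and 2 at 48 h, beside 2.69%, and called higher were 2 at 4 h, beside 3.16%, and 1 at 48 h, beside 24.5%. At 4 h, Stard4, a sterol transfer protein, was lower after PH than after sham surgery (−1.21, SE 0.26), and Abca1, which exports cholesterol (0.69, SE 0.18), and Soat2, which esterifies it (0.66, SE 0.23), were higher. At 48 h, Abcg8 (−1.08, SE 0.25) and Abcg5 (−0.69, SE 0.24), partners in biliary sterol export, were lower, and Npc1, which releases cholesterol from lysosomes, was higher (0.72, SE 0.19). Scaled to the same median, Npc1 differed by 0.24 (limma adjusted p = 0.326) and was not called, and the other 5 calls were kept.

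The livers of a group differed from each other in these genes far more than in most genes, and they differed in the same direction for all enzymes. The SD within groups, on the log2 scale, was 0.73 for Idi1, 0.599 for Fdps, 0.595 for Sqle, 0.58 for Lss, 0.546 for Cyp51 and 0.30 for Srebf2, beside a median of 0.192 over 9764 genes with a mean log2 RPKM above 0. Of these genes, 1.03% had a larger SD than Idi1, 2.96% a larger one than Cyp51 and 16.4% a larger one than Srebf2. In 63 of 80 livers the 5 enzymes all lay on the same side of their group means. This pattern was looked for after the values had been seen.

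The deviations of a liver from its group mean followed each other closely across the 80 livers. Between Idi1 and Cyp51 the Pearson r of these deviations was 0.98 (Spearman rho 0.98), between the other pairs of enzymes it lay between 0.86 and 0.95, and between Srebf2 and the enzymes between 0.64 and 0.75. Without the 2 livers farthest from the median of Cyp51, r was 0.98 with Idi1, 0.90 with Fdps and 0.75 with Srebf2. In the 46 post-PH livers the r of Cyp51 was 0.99 with Idi1 and 0.81 with Srebf2, and in the 34 sham and unoperated livers it was 0.98 and 0.75. These values share libraries, and they are given as a description. Where a group holds livers of more than 1 period, the deviations and the SD within groups include any difference between periods. Its part was not tested. The mean deviation of the 5 enzymes had an r of 0.02 with log2 depth, 0.15 with the hepatocyte markers, −0.19 with the Kupffer cell markers, −0.18 with the neutrophil markers, −0.04 with the endothelial and with the cholangiocyte markers, 0.06 with the stellate markers, 0.01 with the B cell markers, 0.04 with the erythroid markers, 0.22 with the pancreas acinar markers and 0.30 with the markers of proliferating cells.

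**Figure D4:**
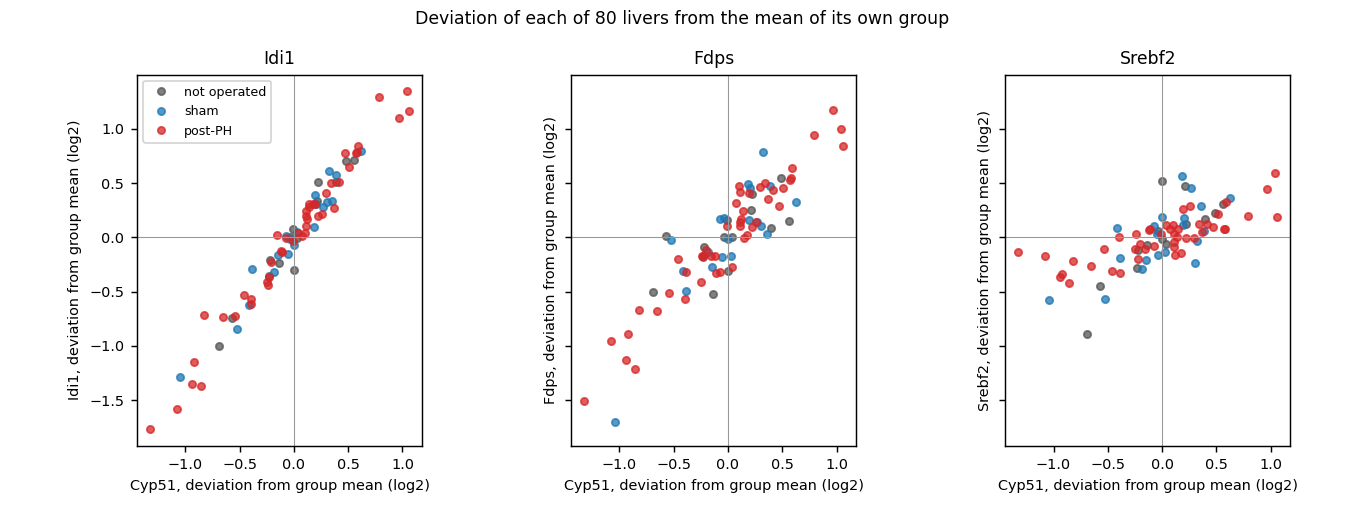
Deviation of each of 80 livers from the mean of its group (log2 scale) for Cyp51 on the x axis and Idi1, Fdps or Srebf2 on the y axis, coloured by kind of group. Idi1 lies along a narrow line with Cyp51 (r = 0.98), Fdps spreads more (r = 0.91), and Srebf2 moves in the same direction over a smaller range (r = 0.72).

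The widest deviations of the mean of the 5 enzymes were −1.38 in S1 replicate 3, −1.32 in X36 replicate 2, −1.15 and −1.06 in X10 replicates 2 and 1 and −1.10 in X20 replicate 6 on the low side, and 1.08 in X28 replicate 1 and 1.00 in X72 replicate 1 and X10 replicate 4 on the high side. Cyp51 was at 18.2 RPKM in S1 replicate 3 and between 36.9 and 47.5 in the 5 other S1 livers. It was at 26.5 RPKM in X36 replicate 2 and between 72.2 and 101 in the 5 others. The 6 hepatocyte markers summed to 30600 RPKM in S1 replicate 3, below the 41400 to 51600 of the others, and to 52100 RPKM in X36 replicate 2, above the 27700 to 44400 of the others, and their part in these deviations was not tested. Without these 2 livers together, the members called lower in X1 against C0 rose from 1 to 3 and those in X28 from 0 to 2, and no other count of this text moved by more than 1.5 times.

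Few genes outside the pathway followed the same course from liver to liver. Of 9763 genes, 20 (0.205%) had an r above 0.8 with the deviations of Cyp51, and the median r was 0.09. Among the 20 were Idi1, Sqle, Lss and Fdps, 9 of the 13 other synthesis genes, 3 pseudogenes, among them Gm13502 and Gm3571, and 4 further protein-coding genes, among them 0610007P14Rik and Rdh11. The 13 synthesis genes had a median r of 0.83, with the highest value for Msmo1, a sterol C4 methyl oxidase (0.95, listed as Sc4mol), and the lowest for Ggps1, which makes geranylgeranyl diphosphate outside the sterol branch (0.15). Of the control genes, Insig1 had an r of 0.74, and Scap (0.19), Srebf1 (0.14), Mbtps1 (−0.06) and Insig2 (−0.09) had values within the bulk of genes. Of the handling genes, Stard4 (0.78) stood above the rest, which ran from −0.30 for Npc1 to 0.37 for Npc2.

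**Figure D5:**
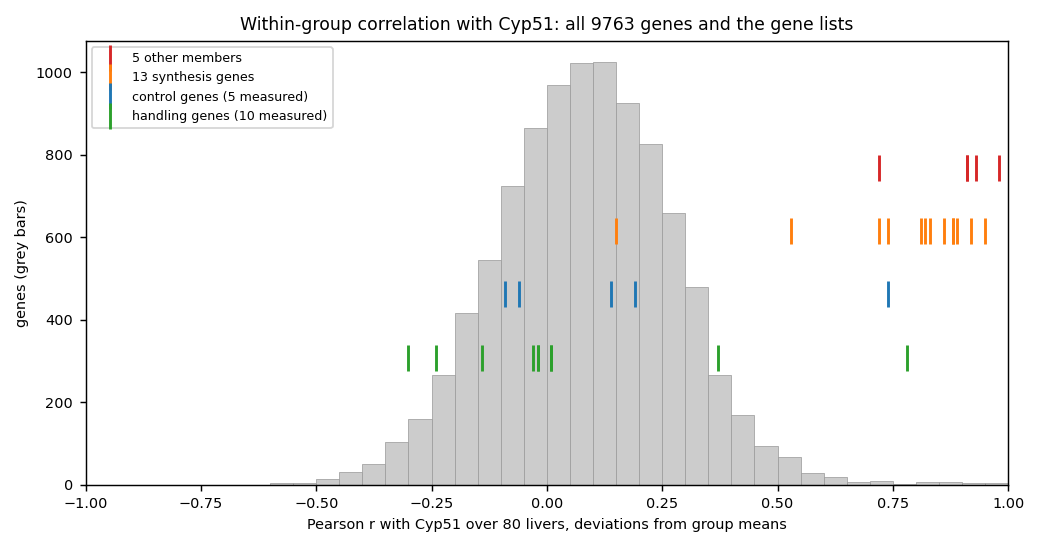
Distribution of Pearson r between the within-group deviations of Cyp51 and those of 9763 genes over 80 livers (grey bars, number of genes per bin), with ticks for the 5 other members, 13 synthesis genes, 5 control genes and 10 handling genes measured here. The bulk of genes centres near the median of 0.09, while the enzymes lie between 0.91 and 0.98 and Srebf2 at 0.72.

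By group means, the genes most like the average course of the 6 members over the 19 groups, out of 9065 other protein-coding genes with a mean log2 RPKM above 0, were Mvk (r = 0.95), Msmo1 (0.93), Dhcr7 (0.92) and Fdft1, squalene synthase (0.91), all of cholesterol synthesis, followed by Yipf1 (0.90), Tmem97 (0.90), Pld3 (0.89), Pcyox1 (0.89) and Zdhhc9 (0.88). For single members, the genes most alike included Rpn2 (0.91) and Man1b1 (0.90) for Srebf2, Cyp51 for Idi1 and Idi1 for Cyp51 (0.98), Pmvk for Fdps (0.93), Copz1 for Sqle (0.91) and Dhcr7 for Lss (0.91). The r of Srebf2 with the other members ranged from 0.48 for Fdps to 0.87 for Sqle. The points of these correlations are group means of the same livers, and no p is given for them.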

How the data were processed

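Poly(A) RNA of individual livers was sequenced from stranded libraries. The authors trimmed reads with Cutadapt and prinseq-lite, mapped them to mm9 with TopHat 2.0.13 and Bowtie2, and counted them over Ensembl 67 genes by strand using featureCounts, where each position of a multi-mapping read received an equal fraction. The deposited table holds log2 RPKM for 37991 genes, and −14.29 stands for no counted reads. RPKM is relative to each library's total, so abundant transcripts that change shift all others. Of 84 value columns, 80 match a labelled sample, and 4 match none and were not used. Of 87 labelled samples, 7 were not analysed here (3 X4, 3 X60, 1 X4W).

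After adding a pseudocount of 0.25 RPKM, log2 values were fitted in limma 3.58.1 (R 4.3.3) with 1 coefficient for each of 19 groups, a trended prior variance and no replicate block, and p was adjusted by Benjamini-Hochberg over 15396 genes within each of 32 comparisons. Fold changes on this scale understate those of low genes. The fit was tested on simulated data. Depth and reads per gene were estimated from the value of a single read. A median of 76.0% of low values per library came within 0.05 of whole reads, so no count test was run. In X28 replicate 2 the share was 37.0%. The authors' own tests used counts in edgeR, which are not used here. Copies were searched in mm9 with BLAST 2.17.0, and figures were drawn with matplotlib 3.10.9 in Python 3.11.15.

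The members, gene lists, tests and the rule for named genes were chosen with earlier results of these data known. Named are the members, list genes called in a post-PH against sham comparison, and the genes closest to the members by group means. The list genes described against C0 or by their correlation with Cyp51, and the genes that followed Cyp51, were chosen after their values were seen. Some genes that the rule would name are not reported here and were left out of the lists. Alternatives were other pseudocounts and filters, scaling to the same median, fits of single comparisons, a replicate block, a prior without a trend, subsets of controls and replicates, and each liver left out in turn.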

Additional observations from a re-analysis of the deposited data

Results flagged for a closer look

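In 6 of 48 tests of a group of 4 to 10 livers, the lowest liver lay farther from the rest than Dixon's 95% limit allows, and chance gives about 1 in 20 such results. All 6 came from S1 replicate 3 and X36 replicate 2. The tests share livers and the genes follow each other, so the 48 are not independent. The count therefore does not measure an excess over chance. In S1 replicate 3, Idi1 was at 3.59, Fdps at 5.67 and Cyp51 at 4.19 log2 RPKM. In X36 replicate 2, Idi1 was at 4.2, Fdps at 5.73 and Cyp51 at 4.73 log2 RPKM. Depth was 35.2 M reads in the first, within its group's range, and 21.3 M in the second, below the 24.1 to 29.9 M of the others. In S1 replicate 3 the stellate markers summed to 33.4 RPKM (others 47.0 to 57.3). In X36 replicate 2 they summed to 87.2 RPKM (others 28.1 to 71.8), and the neutrophil markers to 8.02 RPKM (others 1.82 to 7.49). The part of these measures in the low values was not tested.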

How the results depend on the processing

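Counts of called members that moved by over 1.5 times are given by setting. Without a filter they were 0 in X4-S4, X10-S10, X48-S48, S10-C0 and X1-C0 and 1 in X20-C0 and X4-C4. Fitting the compared groups alone gave 0 in X4-S4, X10-S10, X28-X4 and X72-X48, 2 in X48-S48 and S4-C4, 4 in X1-C0, and 1 in X28-C0 and (X48-S48)-(X20-S20). Scaling to the same median gave 0 in X48-S48 and X20-C0, 2 in X28-C0, X44-C0 and X48-C0, and 1 in X36-C0 and X4-C4. The calls scaled in X28-C0, X44-C0 and X48-C0 were Fdps and Lss, both lower, and that in X36-C0 was Fdps, lower, while Srebf2 was no longer called higher in X36-C0, X44-C0 or X48-C0. Without a trend X10-S10 had 0 and X4-C4 had 1, and a pseudocount of 1 gave X4-C4 1. Testing only genes with a mean above 0 gave 1 in S1-C0 and X28-C0. Replicates 1 to 3 of both groups gave 2 in X10-S10, and replicates 4 to 6 gave 0 in X4-S4.

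With the replicate block, counts were 1 in S1-C0, S20-C0, X28-C0, X36-C0, C4-C0, X4-C4 and (X48-S48)-(X20-S20), 3 in X1-C0, and 0 in X20-C0 and X48-C0. Deviations of same-numbered livers correlated between −0.19 and 0.30, and no comparison with 3 or more pairs had all of them above 0.1, so the numbers were not taken to pair livers. The 5 pairs of S4 against C0 ran from 0.09 to 0.18, 4 of them above 0.1. Whether the replicate numbers follow the periods was not tested.

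C0 replicates 1 to 3 alone gave 0 in S10-C0, X1-C0 and X48-C0 and 1 in S20-C0, X20-C0 and X36-C0. C0 replicates 4 to 6 alone gave 0 in S20-C0, X20-C0, X44-C0, X48-C0 and X72-C0, 2 in X1-C0 and X28-C0, and 1 in X36-C0 and C4-C0. C0 replicates 7 to 9 alone gave 2 in S4-C0 and X4-C0, 1 in S48-C0, X28-C0, X1W-C0 and X4W-C0, and 0 in X1-C0. Leaving out S1 replicate 3 and X36 replicate 2 together, an alternative chosen after seeing the data, gave 3 in X1-C0 and 2 in X28-C0. Adding the RPKM of Gm13502 to Idi1 or of Gm3571 to Fdps was also chosen after seeing the data. It changed the direction or call of no called value and of no post-PH against sham value of the members.

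Leaving out each liver in turn gave ranges of 0 to 1 in X4-S4, X10-S10, X48-S48, S1-C0, S10-C0, X48-C0, X1W-C0 and X72-X48, 0 to 2 in X1-C0 and X28-C0, 0 to 4 in X28-X4, 1 to 2 in X4-C4, 1 to 3 in X20-C0 and X72-C0, 1 to 4 in S20-C0, 2 to 4 in X36-C0, 3 to 4 in S4-C0 and 4 to 5 in X4-C0. Direction turned in uncalled values. With replicates 1 to 3 alone, X1-S1 became 0.24 for Fdps, 0.01 for Idi1, 0.56 for Lss, 0.08 for Sqle and 0.23 for Srebf2, and X20-S20 became 0.03 for Cyp51, 0.16 for Idi1 and 0.18 for Sqle. With replicates 4 to 6 alone, Idi1 in X4-S4 became 0.20. Srebf2 in X4-S4 was 0.00 with a pseudocount of 1 and −0.06 with the replicate block. Scaled, X48-S48 became −0.20 for Lss and −0.26 for Sqle. With a liver left out, X1-S1 ran from −0.44 to 0.06 for Fdps, −0.36 to 0.10 for Lss and −0.16 to 0.07 for Srebf2, and X4-S4 from −0.37 to 0.05 for Fdps and from −0.14 to 0.10 for Srebf2. The cause of these changes was not tested.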
